A study of Homo sapiens with 4 samples.

Results

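The thyroid lineage was followed through 9 genes, of the 26485 gene names in each table, chosen by name: the transcription factors PAX8, NKX2-1, FOXE1 and HHEX, and the hormone synthesis genes TG, TSHR, SLC5A5, DUOX1 and DUOX2. All 9 names were found once in every table. SW1736 and 8505C are established human cell lines derived from anaplastic thyroid cancer (ATC), the most dedifferentiated form of thyroid malignancy. The resistant cells, SW1736-PTX and 8505C-PTX, came from these lines after 6 months in paclitaxel, a drug that stabilizes microtubules, at doses that started at 1 nM and ended at 1.5 µM. They stayed in medium with 1.5 µM, whereas SW1736 wt and 8505C wt cells received none. The labels do not say whether either resistant line is a clone. The mRNA of each of the 4 conditions was sequenced in 1 library, so that no value has an error between cultures, no test between wt and PTX cells of a line was possible, and the 2 lines are not replicates of each other.

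As background, PAX8, NKX2-1, FOXE1 and HHEX are the transcription factors whose joint presence marks the thyroid bud in the embryo, and the follicular cell keeps them in the adult gland. They act together on the promoters and enhancers of the genes for hormone synthesis: SLC5A5 brings iodide into the cell, DUOX1 and DUOX2 make the hydrogen peroxide with which iodide is coupled to TG, and TSHR receives the pituitary signal that drives these steps. Outside the thyroid, NKX2-1 is also a factor of lung epithelium, and PAX8 of kidney and Müllerian epithelium. ATC is known for the loss of much of this program.

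The promoters of the 4 factors are printed because 3 of them differed between libraries from nearly silent to well expressed. The sequences are those of RefSeq on GRCh38.p14, from 250 bases before to 50 after the annotated start, written 5′ to 3′ on the strand of the gene, with every CG dinucleotide, the site at which DNA can be methylated, in capitals. RefSeq gives 2 windows for NKX2-1, and the downstream one is also the window it gives for SFTA3.
PAX8 (chr2:113278872-113279171, minus strand): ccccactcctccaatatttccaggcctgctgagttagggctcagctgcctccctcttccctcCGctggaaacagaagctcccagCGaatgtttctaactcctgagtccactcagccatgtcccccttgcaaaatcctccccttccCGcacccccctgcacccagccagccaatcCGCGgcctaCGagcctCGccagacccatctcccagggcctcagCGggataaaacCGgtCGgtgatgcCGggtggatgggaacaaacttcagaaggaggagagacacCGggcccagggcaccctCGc
NKX2-1, upstream start (chr14:36520183-36520482, minus strand): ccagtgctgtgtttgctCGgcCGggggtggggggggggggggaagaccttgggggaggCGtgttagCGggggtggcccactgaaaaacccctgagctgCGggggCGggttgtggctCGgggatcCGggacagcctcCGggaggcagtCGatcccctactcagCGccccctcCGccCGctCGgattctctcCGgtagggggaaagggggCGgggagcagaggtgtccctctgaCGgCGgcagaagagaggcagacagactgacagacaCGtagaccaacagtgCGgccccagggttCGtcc
NKX2-1, downstream start (chr14:36519507-36519806, minus strand): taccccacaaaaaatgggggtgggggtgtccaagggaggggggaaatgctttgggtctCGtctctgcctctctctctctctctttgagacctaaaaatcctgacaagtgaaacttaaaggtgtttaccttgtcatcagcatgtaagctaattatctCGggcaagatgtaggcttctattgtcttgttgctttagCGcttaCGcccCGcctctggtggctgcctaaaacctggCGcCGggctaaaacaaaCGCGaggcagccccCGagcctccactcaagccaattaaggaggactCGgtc
FOXE1 (chr9:97852976-97853275, plus strand): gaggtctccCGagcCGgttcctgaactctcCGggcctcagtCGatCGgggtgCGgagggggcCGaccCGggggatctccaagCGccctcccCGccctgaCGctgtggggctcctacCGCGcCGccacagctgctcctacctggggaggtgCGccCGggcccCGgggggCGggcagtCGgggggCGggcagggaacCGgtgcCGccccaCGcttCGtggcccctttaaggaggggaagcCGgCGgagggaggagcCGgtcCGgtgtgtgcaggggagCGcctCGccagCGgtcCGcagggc
HHEX (chr10:92689705-92690004, plus strand): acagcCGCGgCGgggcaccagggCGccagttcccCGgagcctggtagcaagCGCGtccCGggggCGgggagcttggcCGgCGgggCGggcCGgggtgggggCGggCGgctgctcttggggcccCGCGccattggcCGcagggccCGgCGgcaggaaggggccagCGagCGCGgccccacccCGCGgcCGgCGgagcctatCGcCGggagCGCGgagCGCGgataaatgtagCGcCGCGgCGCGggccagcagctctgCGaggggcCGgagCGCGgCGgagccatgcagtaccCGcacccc

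The windows differed widely in CG content. Across all 35116 promoter windows of the same length, the median was 14 CG, with quartiles of 4 and 28. HHEX held 44 CG, and 95.8% of all windows held fewer. FOXE1 held 32 CG, above 81.1% of all windows. PAX8 held 13, above 48.3%, and the 2 windows of NKX2-1 held 21 and 11, above 60.5% and 45.3%. Among the hormone synthesis genes, of which TG was left out here, SLC5A5 held 12 CG, TSHR 10, DUOX2 18 and DUOX1 35. The letters TCAAGTG, a core bound by factors of the NKX2 family, were searched on both strands and occurred in 2.48% of all windows and in 0 of the 9 windows of these genes. The forkhead letters TGTTTAC, searched in the same way, occurred in 3.42% of all windows and in 1 of the 9, the downstream window of NKX2-1, with its first base at -130 from the start. Such matches describe letters only, and no methylation or binding was measured.

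**Figure D1:**
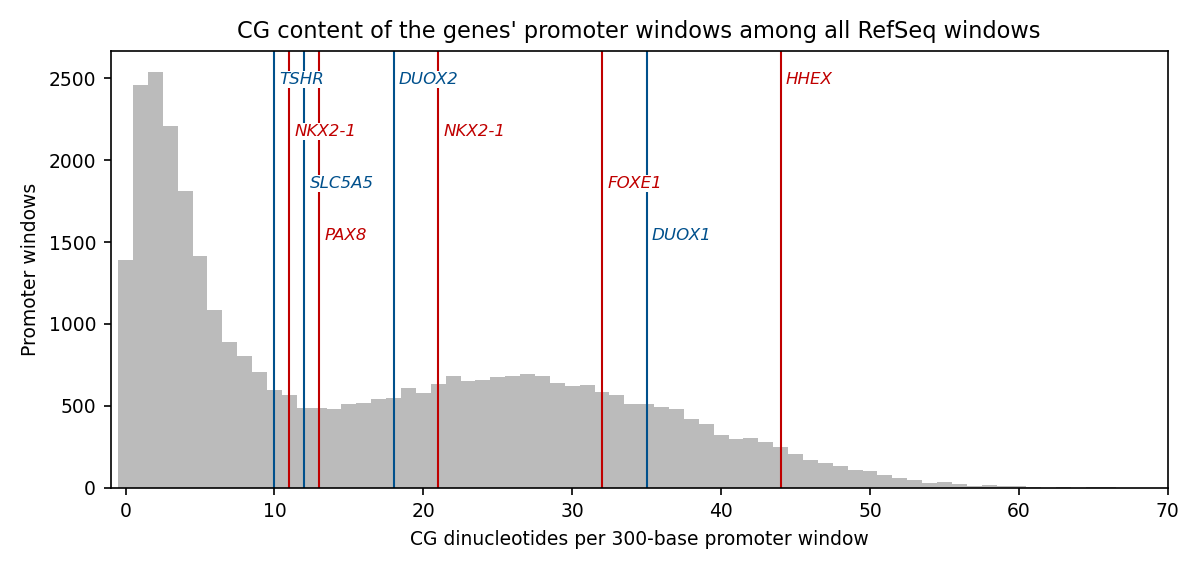
The number of promoter windows (y axis) is plotted against the number of CG dinucleotides in the 300-base window (x axis) for 35116 RefSeq windows (grey bars), with the windows of the transcription factors (red lines) and of the hormone synthesis genes (blue lines) marked. HHEX, at 44 CG, stands far to the right of PAX8, at 13, while SLC5A5, TSHR, PAX8 and the downstream NKX2-1 window lie between 10 and 13.

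The libraries held 43.5 to 57.9 M reads, as estimated from the files. All levels are given as FPKM, the reads per kilobase of gene and per M reads. Of 86 ribosomal protein and proteasome core genes, 0 were at 0 in any library. SW1736-PTX stood apart from the wt library of its labelled line: across 14692 genes its Pearson's r on log2(FPKM + 0.1) was 0.767 with SW1736 wt, 0.873 with 8505C wt and 0.933 with 8505C-PTX. The 8505C-PTX library was likewise nearer to SW1736-PTX than to its own wt library, with an r of 0.877 with 8505C wt. Between the wt libraries r was 0.845. SW1736-PTX stood apart from SW1736 wt in the thyroid factors too. Over the 4 factors, the mean absolute log2 difference of SW1736-PTX was 5.25 from SW1736 wt, 0.94 from 8505C wt and 0.46 from 8505C-PTX, beside 1.24, 0.97 and 0.56 over all 14692 genes. SW1736-PTX is therefore set against both wt libraries below for the members that could be compared, CTSL and HOXA3. For the other genes named, any log2 difference given for SW1736-PTX is from SW1736 wt alone. What part the likeness of SW1736-PTX to the 8505C libraries has in any difference was not tested. The identity of the cells behind each library was not tested either, so every difference between SW1736-PTX and SW1736 wt is one between the libraries as labelled. A difference was taken as log2((first + 0.1)/(second + 0.1)) of FPKM, which understates the change of low genes. It was called when it was beyond 1.5 in either direction and the gene was above 0.5 FPKM in at least 1 library of the pair.

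The 2 lines expressed the factors in different combinations, and SW1736-PTX differed from SW1736 wt by an exchange of them. SW1736 wt had PAX8, FOXE1 and HHEX and no read of NKX2-1. The 8505C wt cells had NKX2-1 and HHEX, with PAX8 and FOXE1 near the limit of detection, and 8505C-PTX had that combination too. SW1736-PTX showed the combination of the 8505C libraries, with FOXE1 at 0.511 FPKM. In each library 2 or 3 of the 9 genes were above 0.5 FPKM, and all of those were factors. Whether SW1736 and 8505C differ in their response could not be tested with 1 library per condition. In bulk RNA, fewer cells that use a gene and less of its RNA in each cell cannot be told apart.

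**Figure D2:**
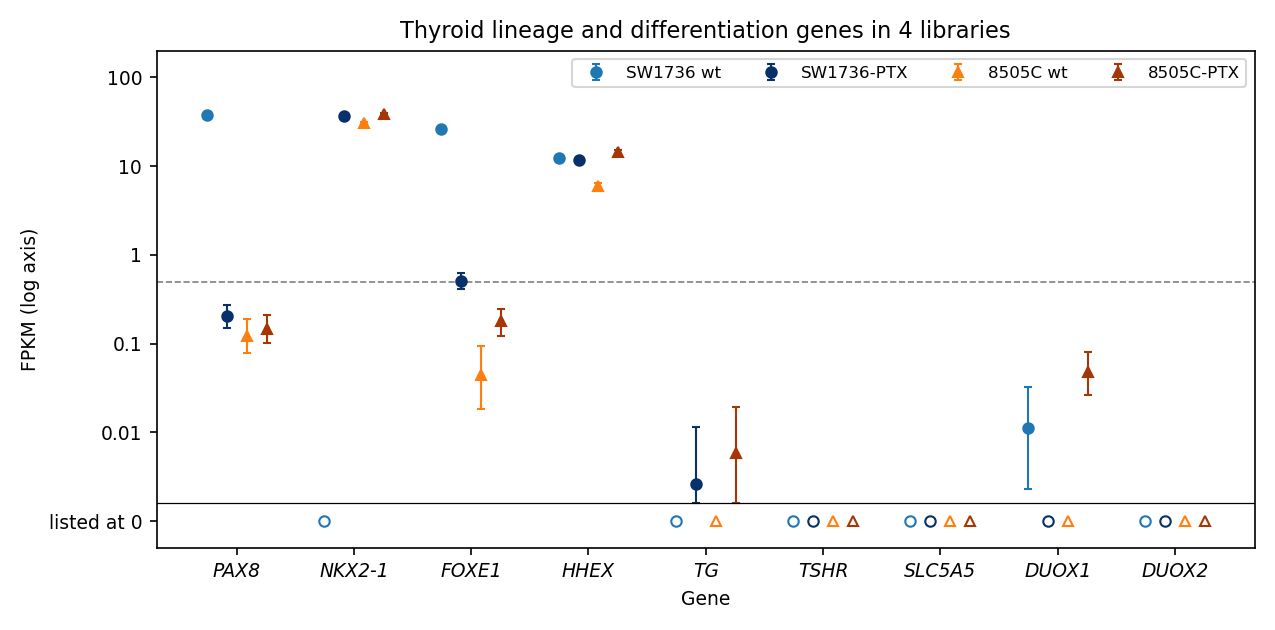
FPKM on a log axis (y axis) is plotted for the 9 genes (x axis) in SW1736 wt (light blue circles), SW1736-PTX (dark blue circles), 8505C wt (orange triangles) and 8505C-PTX (brown triangles), with 95% counting intervals as bars, cut at the solid line. Open symbols under the solid line are listed at 0, and the dashed line is 0.5 FPKM. PAX8 and FOXE1 are high only in SW1736 wt, at 38.2 and 26.6, NKX2-1 is at 30.5 to 39.0 in the other 3 libraries, and no hormone synthesis gene reaches 0.5.

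PAX8, a paired-box factor needed for the survival of thyroid follicular cells and for the transcription of TG and SLC5A5, lies on chromosome 2 (hg38, 113215997 to 113278921, minus strand) and has 12 exons and 4055 bases in its reference transcript. Its FPKM was 38.2 in wt and 0.206 in PTX cells of SW1736, and 0.123 and 0.146 in those of 8505C. SW1736 wt alone was high, and the 95% counting intervals of the other 3 libraries (0.151 to 0.271, 0.0781 to 0.189 and 0.101 to 0.208, in the same order) overlapped one another. The estimated reads behind these values were 7581, 48.5, 21.8 and 31.7. PAX8 was 185-fold lower in SW1736-PTX than in SW1736 wt (counting interval 141 to 254). The log2 difference was -6.97, the 25th lowest of the 14202 genes compared. Between the wt libraries it was -7.42 for 8505C wt against SW1736 wt. In the 8505C pair and between SW1736-PTX and 8505C wt, PAX8 was under 0.5 FPKM in both libraries and was not compared.

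FOXE1, a forkhead factor that is needed for the descent of the thyroid bud and binds the TG promoter, is a gene of 1 exon on chromosome 9 (97853255 to 97856715, plus strand). Its FPKM was 26.6 in wt and 0.511 in PTX cells of SW1736, and 0.0443 and 0.178 in those of 8505C. It followed PAX8 in being high only in SW1736 wt, but its remaining level was more than counting error apart in the other 3 libraries (intervals 0.416 to 0.618, 0.0185 to 0.0949 and 0.121 to 0.248). FOXE1 was 52.0-fold lower in SW1736-PTX than in SW1736 wt (counting interval 42.9 to 64.1), a log2 difference of -5.45 and the 97th lowest of the genes compared. Against 8505C wt the direction turned: SW1736-PTX was higher, with a log2 difference of 2.08, although its 0.511 FPKM lay just above the 0.5 limit. In the 8505C pair both libraries were under 0.5 FPKM and FOXE1 was not compared; the ratio of 8505C-PTX to 8505C wt was 4.02 (counting interval 1.67 to 10.3), on 33.3 and 6.74 estimated reads.

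NKX2-1, the homeodomain factor also known as TTF-1, which binds the TG and TSHR promoters, lies on chromosome 14 (36516399 to 36520225, minus strand) and has 3 exons in its reference transcript of 2190 bases. Its FPKM was 0 in wt and 36.3 in PTX cells of SW1736, and 30.5 and 39.0 in those of 8505C. SW1736 wt alone lacked it, and the other 3 libraries held 2910 to 4605 estimated reads each. At the depth of SW1736 wt, 0 reads allow a level of up to 0.0280 FPKM (3 reads). NKX2-1 was therefore at least 1297-fold higher in SW1736-PTX than in SW1736 wt, and its log2 difference of 8.51, which depends on the 0.1 added, was the 26th highest of 14202. Against 8505C wt, SW1736-PTX was 1.19-fold higher (counting interval 1.14 to 1.25), which was not called. In the 8505C pair the ratio of PTX to wt was 1.28 (counting interval 1.22 to 1.34), a log2 difference of 0.35 that was not called.

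HHEX, a homeodomain repressor needed for the early thyroid bud and for liver and pancreas, lies on chromosome 10 (92689924 to 92695651, plus strand; 4 exons). It was the only factor of the 4 above 0.5 FPKM in every library, at 12.4 in wt and 11.7 in PTX cells of SW1736, and 5.92 and 14.4 in those of 8505C. The lowest level was that of 8505C wt, and the intervals of SW1736 wt (11.7 to 13.2) and SW1736-PTX (11.1 to 12.4) overlapped. In SW1736 the PTX to wt ratio was 0.946 (counting interval 0.870 to 1.03; log2 difference -0.08). In 8505C it was 2.42 (2.17 to 2.70; log2 difference 1.26), which was below the limit of 1.5. Against 8505C wt, SW1736-PTX was 1.98-fold higher (1.77 to 2.21), a log2 difference of 0.97 that was not called.

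In SW1736, 4 of the 9 could be compared, of which 1 was called up-regulated and 2 down-regulated. Among all 14202 genes compared in this pair, 25.9% were called, 15.7% up-regulated and 10.2% down-regulated. The log2 differences of the 4 genes ran from -6.97 to 8.51, with a median of -2.76, beside 0.01 for all genes. Without the FPKM filter 6 of the 9 were compared, and their median was -0.12, beside 0.10 for all genes. PAX8 and NKX2-1 passed the filter only through the library in which each is high. In 8505C, 2 of the 9 genes could be compared and 0 were called, where 20.9% of 13794 genes were called, 15.0% up-regulated and 5.89% down-regulated. The median of these 2 genes was 0.81, beside 0.11 for all genes. With 8505C wt as its reference, SW1736-PTX had 1 gene called, FOXE1, of 3 compared, where 20.4% of all genes were called. Between the wt libraries, 3 of 4 genes compared were called, PAX8 and FOXE1 lower and NKX2-1 higher in 8505C wt, where 17.6% of all genes were called. Between the PTX libraries, 0 of 3 were called, where 7.79% of all genes were called. These comparisons share libraries with one another, so that they are not independent. With so few genes, the counts are a description of the members and not of the thyroid program as a whole.

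**Figure D3:**
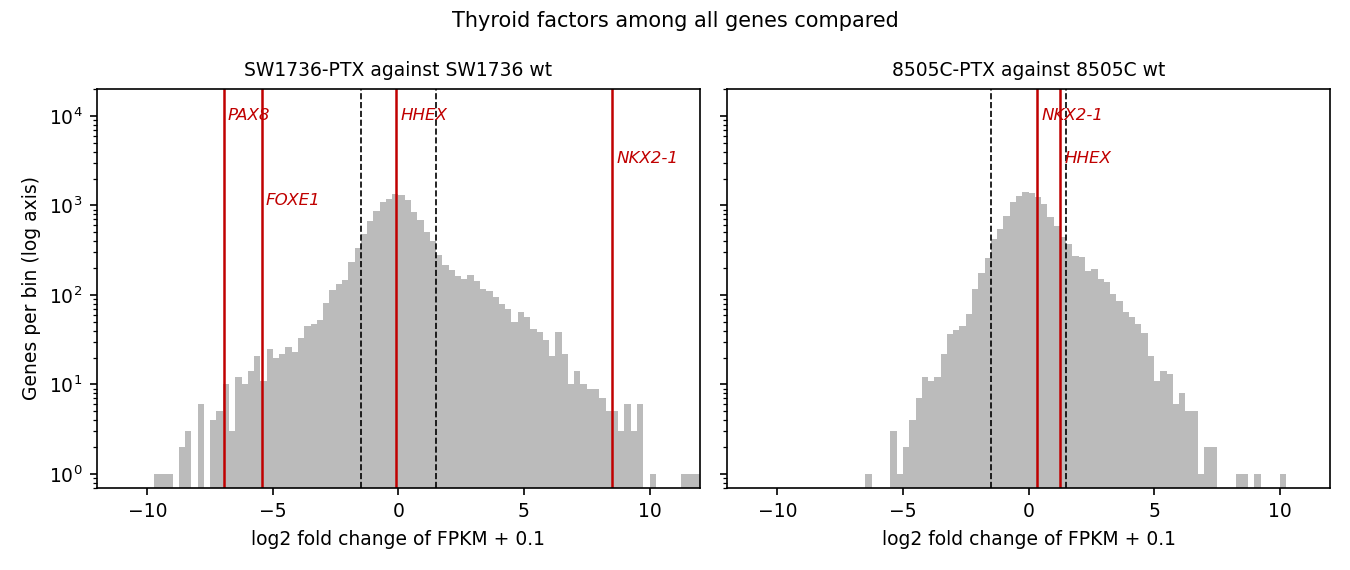
The number of genes per bin on a log axis (y axis) is plotted against the log2 difference of FPKM + 0.1 (x axis) for SW1736-PTX against SW1736 wt (left, 14202 genes) and 8505C-PTX against 8505C wt (right, 13794 genes), with the factors compared as red lines and the limits of 1.5 as dashed lines. PAX8 (-6.97), FOXE1 (-5.45) and NKX2-1 (8.51) lie in the tails on the left, and HHEX (1.26) and NKX2-1 (0.35) lie inside the limits on the right.

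The genes that make thyroid hormone were silent or nearly so in all 4 libraries, whichever factors were present. TSHR, the receptor for thyrotropin (chromosome 14, 80955525 to 81146302, plus strand), was listed at 0 in every library, which at 3 reads allows at most 0.0120 to 0.0160 FPKM. SLC5A5, the sodium iodide symporter (chromosome 19, 17871973 to 17895174, plus strand), was also at 0 in every library, with limits of 0.0144 to 0.0191. DUOX2, the main oxidase of the pair (chromosome 15, 45092654 to 45114161, minus strand), was at 0 throughout, with limits of 0.00814 to 0.0108.

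TG, the scaffold protein on which the hormone is made (chromosome 8, 132866960 to 133134899, plus strand; 48 exons and 8455 bases), was at 0 in both wt libraries, at 0.00260 FPKM in SW1736-PTX and at 0.00586 in 8505C-PTX. These values stand for about 1.27 and 2.65 reads, so that all 4 libraries were at or under the floor of 3 reads. DUOX1, the partner oxidase transcribed away from DUOX2 (chromosome 15, 45129994 to 45165578, plus strand), was at 0.0113 FPKM in wt and 0 in PTX cells of SW1736, and 0 and 0.0475 in those of 8505C, on about 3.04 reads in the first and 14.0 in the last. The 8505C-PTX value was at least 3.78-fold above the floor of 8505C wt, but it remained far below 0.5 FPKM. Differences of these 5 genes between wt and PTX cells were thus either not detectable at this depth or too low to be compared.

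Among the other genes of hormone synthesis, release and action, the maturation factors of the oxidases were at 0, while several proteases of hormone release were high. Of 26 such genes, 6 were at 0 in all 4 libraries: DUOXA1 and DUOXA2, the maturation factors of the oxidases, SLC5A8, LRP2, CDH16 and TFF3. SLC26A4 (pendrin), an apical iodide exchanger, was at 0.0276 in wt and 0.280 in PTX cells of SW1736, and 0.150 and 0.318 in those of 8505C, and IYD, which recovers iodide from unused tyrosines, did not exceed 0.0113. In SW1736 13 of them could be compared, with 2 called up-regulated and 0 down-regulated and a median log2 difference of 0.20. In 8505C 11 could be compared, with 4 called up-regulated and 0 down-regulated and a median of 0.82. The shares called up-regulated may be read against the 15.7% and 15.0% of all genes given above, and the medians against 0.01 and 0.11.

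Among the genes called, 4 were cathepsins, lysosomal proteases that in the follicular cell release hormone from TG but are active in most cell types. CTSB was at 111.1 FPKM in wt and 174.0 in PTX cells of SW1736, and 96.8 and 278.4 in those of 8505C, and was called in 8505C (log2 difference 1.52), a call that was lost with TPM (1.48) and with centring on the median gene (1.42). CTSD was at 170.1, 440.5, 80.8 and 340.6 in the same order and was called in 8505C (2.07). CTSK, at 0.935, 1.60, 0.340 and 1.41, was also called in 8505C (1.78), but not with a pseudocount of 1 (0.84). CTSL was at 43.5, 200.9, 110.4 and 102.9 and was called in SW1736 alone (2.20), while its log2 difference in 8505C was -0.10. Against 8505C wt, the log2 difference of CTSL in SW1736-PTX was 0.86, which was not called. All 4 were higher in SW1736-PTX than in SW1736 wt, and CTSB, CTSD and CTSK were higher in 8505C-PTX than in 8505C wt.

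KCNQ1, a potassium channel subunit that supports iodide uptake, was the one gene of this list called up-regulated in both lines. It was at 0 in both wt libraries, at 4.85 FPKM in SW1736-PTX and at 1.14 in 8505C-PTX. Against the floor of 3 reads in the wt libraries, these levels were at least 255-fold and 53.4-fold higher. With a pseudocount of 1 the log2 difference was 2.55 in SW1736 and 1.10 in 8505C, so that the call in 8505C was lost.

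Of the genes of hormone action and conversion, THRB and DIO2 were called lower in 8505C wt than in SW1736 wt. THRA, a nuclear thyroid hormone receptor, was at 16.4 FPKM in wt and 18.8 in PTX cells of SW1736, and 14.0 and 24.8 in those of 8505C. THRB, the second receptor gene, was at 3.34, 1.29, 0.0200 and 0.139, and DIO2, a deiodinase that makes the active hormone, was at 3.34, 1.53, 0.0288 and 0.0250. For THRB and DIO2, SW1736-PTX thus lay between SW1736 wt and the 8505C libraries, and above 0.5 FPKM, unlike its level of PAX8. Neither was called in SW1736 (log2 differences of -1.31 and -1.08). Over 15 genes of a commonly used thyroid differentiation score, which include all members but HHEX, 6 were above 0.5 FPKM in wt and 6 in PTX cells of SW1736, and 3 and 3 in those of 8505C, and 4 of the 15 were at 0 in all 4 libraries.

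A further list held 19 cofactors of the thyroid factors and transcription factors of the early foregut. Of these, 10 were compared in SW1736 and 1 was called up-regulated and 0 down-regulated; 10 were compared in 8505C and 3 were called up-regulated and 0 down-regulated. Among all genes, 15.7% and 15.0% were called up-regulated and 10.2% and 5.89% down-regulated in these pairs. WWTR1 (TAZ), a coactivator of PAX8 and NKX2-1, was at 17.1 FPKM in wt and 10.8 in PTX cells of SW1736, and 12.4 and 17.5 in those of 8505C, and EP300, a histone acetyltransferase and coactivator, was at 11.9, 15.5, 11.2 and 12.5. GLIS3, a zinc finger factor needed for SLC5A5 expression, was at 5.92, 4.70, 1.40 and 2.24. None of these 3 was called in either pair. HOXA3, a patterning factor of the pharyngeal region, was at 0.120, 1.07, 1.44 and 1.82 and was called in SW1736 (log2 difference 2.41), with 0.89 at a pseudocount of 1 and -0.39 against 8505C wt. Like NKX2-1, it was low in SW1736 wt and present in the other 3 libraries.

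In 8505C the calls were HES1, SOX9 and GATA6. HES1, a repressor downstream of Notch that takes part in thyroid development, was at 1.70 FPKM in 8505C wt and 23.6 in 8505C-PTX (log2 difference 3.72), and at 6.82 and 11.3 in SW1736 wt and SW1736-PTX. SOX9, a factor of epithelial progenitors, was at 7.16 in 8505C wt and 23.8 in 8505C-PTX (1.72), but at 45.5 in SW1736 wt and 25.7 in SW1736-PTX (-0.82). GATA6, an endoderm factor, was at 0.353 and 2.22 in 8505C (2.36, or 1.25 with a pseudocount of 1, which was not called) and at 4.18 and 2.36 in SW1736 (-0.80). For SOX9 and GATA6, and for HES1 on the log2 scale, the levels of the 2 PTX libraries lay closer to each other than those of the 2 wt libraries did. The same held over all 14692 genes, with a mean absolute log2 difference of 0.56 between the PTX libraries and 0.97 between the wt libraries.

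**Figure D4:**
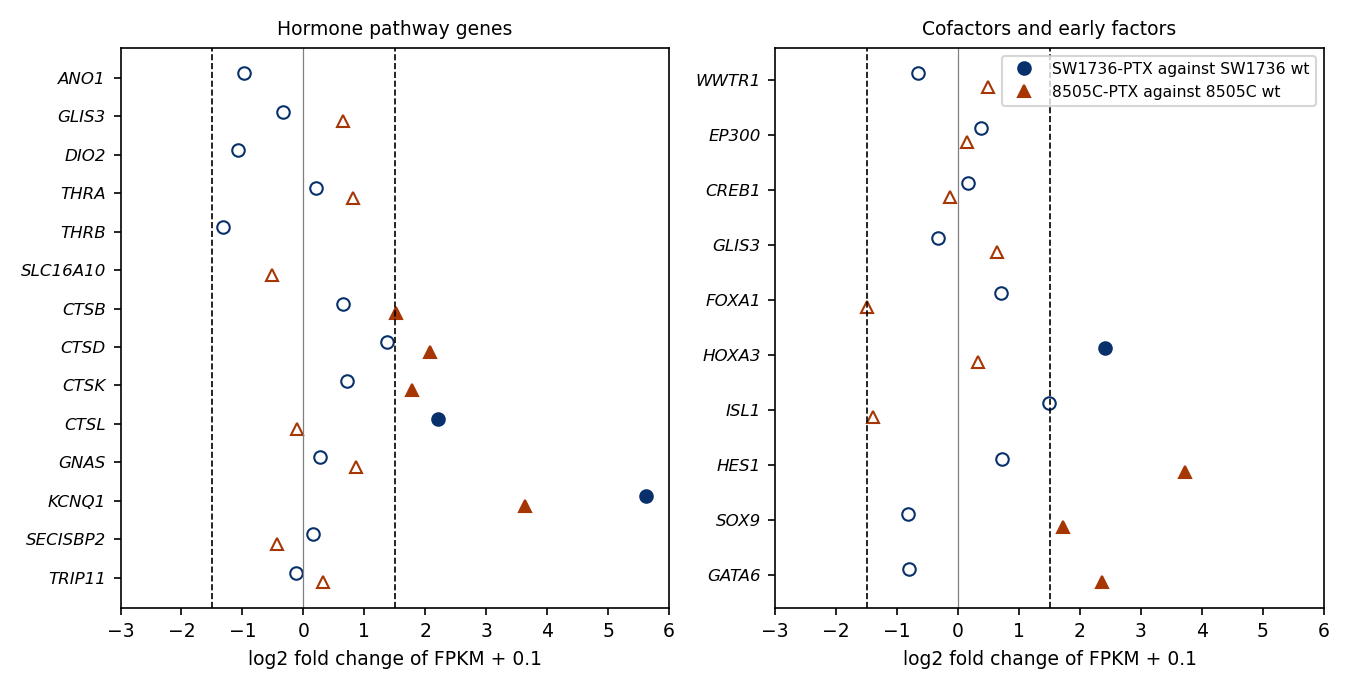
The log2 difference of FPKM + 0.1 (x axis) is plotted for each compared gene (y axis) of the hormone pathway list (left) and the list of cofactors and early factors (right), for SW1736-PTX against SW1736 wt (blue circles) and 8505C-PTX against 8505C wt (brown triangles). Filled symbols are called, the dashed lines are the limits of 1.5, and KCNQ1 alone has a filled symbol in both pairs, while GLIS3 is in both lists.

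The genes next to the 4 factors were examined to see how far each pattern reached. Around NKX2-1, all 5 genes above 0.5 FPKM in at least 1 library were lower in SW1736 wt than in the other 3. In SW1736-PTX 4 of them were called up-regulated, where 15.7% of all genes compared were. These 4 were under 0.5 FPKM in SW1736 wt and passed the filter only through SW1736-PTX. SFTA3, named for lung surfactant, starts 6.44 kb downstream of the NKX2-1 start by the coordinates used here. RefSeq, however, also gives SFTA3 the downstream NKX2-1 window, and whether it shares reads with NKX2-1 was not tested. SFTA3 was at 0 in wt and 12.8 in PTX cells of SW1736, and 17.6 and 22.4 in those of 8505C. In SW1736-PTX it was at least 668-fold higher than the floor of SW1736 wt. NKX2-8, a related homeodomain gene 62.4 kb upstream, was at 0, 2.95, 2.52 and 2.60. PAX9, a paired-box factor of the pharyngeal pouches 137 kb upstream, was at 0.289, 4.70, 2.61 and 3.43. MBIP, 199.5 kb downstream, was at 9.18, 16.3, 18.0 and 15.9 and was not called. Within the 8505C pair none of the 5 was called, where 20.9% of all genes compared were, and their log2 differences lay between -0.18 and 0.38.

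NKX2-1-AS1, the fourth gene called at this locus, overlaps 948 bases of NKX2-1 on the opposite strand and was at 0 in wt and 1.25 in PTX cells of SW1736, and 0.841 and 1.08 in those of 8505C. The strand setting of the counting is not given in the sources used here, so that reads of NKX2-1 and of its antisense gene cannot be told apart where they overlap.

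Around PAX8, the pattern was found in the antisense gene inside it and not in the genes on either side. PAX8-AS1, which lies wholly within PAX8 on the opposite strand and has the same limit on strand, was at 1.88 FPKM in wt and 0.269 in PTX cells of SW1736, and 0.439 and 0.184 in those of 8505C, and was called down-regulated in SW1736 (log2 difference -2.42). CBWD2, 159 kb upstream, was at 13.8, 17.7, 19.5 and 10.5, and PSD4, 105 kb downstream, was at 0.907, 0.674, 0.285 and 1.52; neither was called in SW1736, and PSD4 was called up-regulated in 8505C (2.07). Around FOXE1, none of the 3 genes above 0.5 FPKM was called in either pair, where 25.9% and 20.9% of all genes compared were. XPA, a DNA repair gene 156 kb upstream, was at 13.8, 15.6, 13.5 and 10.4, and C9orf156, 69.3 kb downstream, was at 7.03, 6.89, 6.79 and 4.80. ANP32B, 130.0 kb downstream, was at 305.4, 255.6, 299.7 and 141.1. Around HHEX, IDE (6.82 to 12.4 FPKM) and EXOC6 (5.40 to 7.34) were not called, and KIF11, a mitotic kinesin 96.9 kb upstream, was called down-regulated in SW1736 (54.3 to 11.0 FPKM) and in 8505C (32.0 to 10.4). Next to DUOX1 and DUOX2, SORD was at 12.9 to 34.1 FPKM in the 4 libraries, while DUOXA1 and DUOXA2 were at 0. SHF, on the far side of DUOX1, was at 0, 0.343, 0.439 and 2.45 and was called up-regulated in 8505C.

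**Figure D5:**
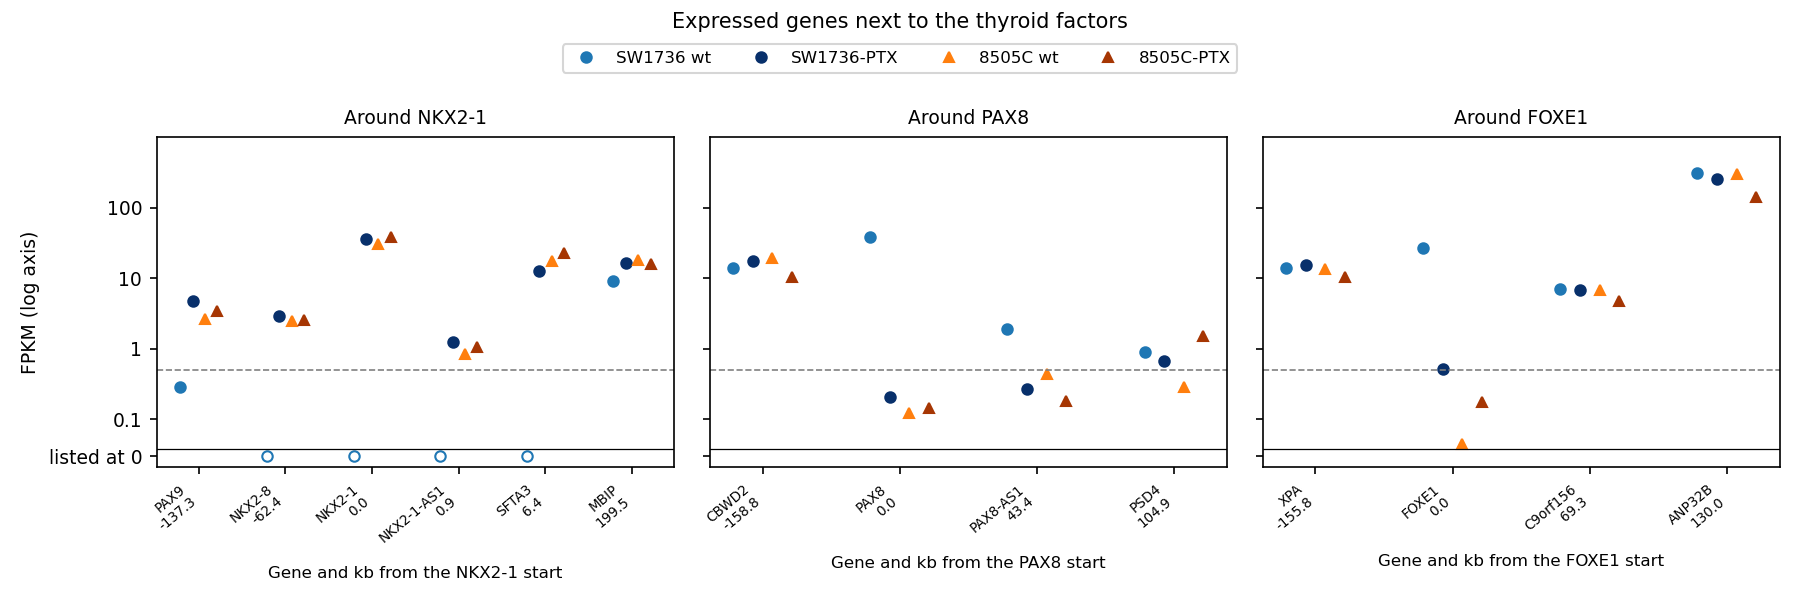
FPKM on a log axis (y axis) is plotted for the genes above 0.5 FPKM within 200 kb of NKX2-1, PAX8 and FOXE1 (x axis, with the distance in kb from the start of the factor, negative upstream), in SW1736 wt and SW1736-PTX (light and dark blue circles) and 8505C wt and 8505C-PTX (orange and brown triangles). Open symbols under the solid line are listed at 0 and the dashed line is 0.5 FPKM; SW1736 wt is the lowest of the 4 libraries at every gene around NKX2-1, whereas the neighbours of FOXE1 do not follow it.

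Genes with profiles most like those of the factors were sought among 14691 others by the Euclidean distance of centred log2(FPKM + 0.1) over the 4 libraries, a measure that rests on 4 points. Nearest to NKX2-1 was GJA1, the gap junction protein connexin 43, with 0.102 FPKM in wt and 71.1 in PTX cells of SW1736, and 56.4 and 71.7 in those of 8505C (distance 0.11), followed by LAMP3 (0.30) and FOXC2 (0.59). Nearest to PAX8 were B3GNT9 (0.30), SLC38A5 (0.33) and AP1M2 (0.35), the last at 16.3 in SW1736 wt and 0 in the others. Nearest to FOXE1 were FGFR2, a receptor of fibroblast growth factors at 13.7, 0.166, 0 and 0.0110 (0.61), SNAP25 (0.68) and CDH11 (0.80). Nearest to HHEX were ZNF300 (0.07), MFI2-AS1 (0.09) and ANXA4 (0.10). With limits chosen after the values were seen, PAX8 and FOXE1 were 2 of 113 genes above 5 FPKM in SW1736 wt and below 1 in the other 3 libraries, and NKX2-1 was 1 of 100 genes below 0.5 in SW1736 wt and above 5 in the other 3.

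The labelled cell type and other possible ones were checked by marker genes. Of the defining markers of the thyroid follicular cell, TSHR and SLC5A5 were at 0 in all libraries and TG did not exceed 0.00586 FPKM, so that PAX8, FOXE1 and NKX2-1 were the only markers of this list above 0.5 FPKM. The summed level of 6 lung epithelial markers was 0 in wt and 0.323 in PTX cells of SW1736, and 0.0240 and 0.901 in those of 8505C, with SFTPA1 and SCGB1A1 at 0 and SFTPB highest at 0.770 in 8505C-PTX. That of 5 kidney epithelial markers did not exceed 0.167, and that of 6 C-cell markers, with CALCA at 0 in all libraries, ranged from 0.131 to 0.534. Of 4 leukocyte markers, PTPRC did not exceed 0.0197, and CD14 was at 0.576 to 4.50. Of 3 endothelial markers, CDH5 was at 0, 0.225, 55.9 and 4.53, while PECAM1 and VWF did not exceed 0.281. The epithelial keratins KRT7, KRT8 and KRT18 were at 257 FPKM or more in every library, and EPCAM and CDH1 did not exceed 0.0806. KRT19, another epithelial keratin, was at 266.1 in wt and 0.535 in PTX cells of SW1736, and 0 and 0 in those of 8505C, and so, like PAX8, was high in SW1736 wt alone. What part the differences of CDH5, CD14 and KRT19 between the libraries have in these results was not tested.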

How the data were processed

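Sequencing of mRNA covered 4 conditions, with 1 library (Universal Plus mRNA-Seq kit) each. The authors converted and demultiplexed the reads with bcl2fastq (version 2.20, per the processing notes of the submitters), trimmed adapters and low-quality bases, aligned single-end reads of 75 bp with STAR to hg38 and quantified genes with StringTie; the annotation and the strand setting are not given in the sources used here. The deposited coverage is the mean read depth per base, not scaled for depth by the authors. The FPKM column, as deposited by the authors, is scaled to gene length and library depth. The deposited TPM is that quantity scaled by the authors to an equal total per library.

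The rows of a gene name were summed. Read depth came from the highest ratio of coverage to FPKM (48.9, 57.9, 43.5 and 53.6 M reads for SW1736 wt, SW1736-PTX, 8505C wt and 8505C-PTX). Reads per gene were estimated from FPKM, depth and the length of the MANE transcript, or of the canonical one for neighbours and KCNQ1, in GENCODE 44, and given exact Poisson 95% intervals; ratios have exact binomial intervals. Intervals and the floor of 3 reads cover counting error only. Of 23223 rows with a GENCODE gene of the same name, chromosome and strand, 99.6% overlapped it, so hg38 coordinates were used as the files give them. With 1 library per condition no p-value was computed. Calls followed the limits of 0.5 FPKM and 1.5 in the methods; the pseudocount of 0.1 and the use of 1 library for the FPKM limit were choices made here.

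All 9 genes are named, with every gene of the pathway and factor lists called in a line and DUOXA1, DUOXA2, SLC26A4 and IYD, the neighbours above 0.5 FPKM within 200 kb, and the 3 most alike genes of each member above 0.5 FPKM. The remaining genes named as examples, among them the other pathway genes at 0, THRA, THRB, DIO2, WWTR1, EP300, GLIS3 and the markers, were chosen with their values known. Some genes of the lists are not reported here and were left out of the list counts. The members and lists were chosen with earlier results of these data known. Promoter windows came from RefSeq (GRCh38.p14) and were taken for 8 of the 9 genes. TG was left out of this step, so its promoter was not searched. Alternatives changed the pseudocount, the FPKM filter, how repeated gene names were joined, the centring, the unit, the limit on the difference and the reference library of SW1736-PTX. Python 3.11.15, NumPy 2.4.6, pandas 2.3.3, SciPy 1.17.1 and matplotlib 3.10.9 were used.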

Additional observations from a re-analysis of the deposited data

Results flagged for a closer look

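Of the members compared in both lines and the list genes called in at least 1, 4 genes stood out because the log2 difference of PTX against wt had opposite signs in SW1736 and 8505C. List genes called in neither line, such as ISL1 (1.50 and -1.40), were not considered. With 1 library per condition the difference between the lines was not tested. HHEX was at -0.08 in SW1736 and 1.26 in 8505C, 1.34 apart. SOX9 was at -0.82 and 1.72 (2.54 apart) and GATA6 at -0.80 and 2.36 (3.16 apart). CTSL was at 2.20 and -0.10, a difference of -2.31 for 8505C less SW1736. The values near 0, that of HHEX in SW1736 and that of CTSL in 8505C, have a sign but hardly a size.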

How the results depend on the processing

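For 16 results, each that of a gene in a line, the 10 alternatives gave 143 values. NKX2-1, HHEX and KCNQ1 each gave a result in both lines. Of the values, 129 kept their side of the limit and, where called, their direction. HHEX in SW1736 is among these 129, although its direction turned with 8505C wt as the reference. Its log2 difference was then 0.97 in place of -0.08, and neither value was called. For 10 counts and medians there were 94 values, of which 68 stayed. The calls of PAX8, NKX2-1 and FOXE1 in SW1736 rest on SW1736 wt. With 8505C wt as the reference, 1 of 3 members compared was called, and the median of the members was 0.97. The log2 differences of FOXE1 and HOXA3 were then 2.08 and -0.39. Of the lists, 7 of 13 pathway and 5 of 10 factor genes compared were called there, where 20.4% of all genes compared were. For the other alternatives the share of all genes called was not computed, so their counts have no such share beside them. Results that an alternative could not compare are not among the 143 values. With 8505C wt as the reference, PAX8 gave no value. When 0.5 FPKM was required in both libraries, PAX8, NKX2-1, KCNQ1 and HOXA3 in SW1736 gave none. The same filter left CTSK, KCNQ1 and GATA6 in 8505C without a value. That filter left 1 member called in SW1736, 0 between the wt libraries, 1 pathway gene in SW1736 and 2 in 8505C, and 0 factor genes in SW1736. A limit of 1 gave 1 member in 8505C (HHEX), 1 between the PTX libraries, 5 pathway genes in SW1736, and 2 and 5 factor genes in SW1736 and 8505C; a limit of 2 gave 2 pathway genes in 8505C. With a pseudocount of 1 the median of the members in SW1736 was -2.13, 2 pathway genes were called in 8505C and 0 factor genes in SW1736. With a pseudocount of 0.01, 2 and 5 factor genes were called. Without a filter the median was -0.12 and 2 and 5 factor genes were called, TPM gave 3 and 5, and centring gave 5 in 8505C. The alternatives for the factor list were added after the data were seen. No paired analysis was possible because each condition of a line has 1 library and the labels carry no replicate numbers. A fit over both lines, which would treat them as replicates, was not run. Depth limits TG and DUOX1, on 14.0 estimated reads or fewer, and the spread between cultures is unknown for every value.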
